A study of Dunaliella salina with 9 samples.

Results

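Dunaliella salina is a unicellular green alga of salt waters, known for storing carotenoids and for balancing external salt with glycerol. Among the 76875 transcript clusters listed for it, 38 clusters had abundances that climbed in steps with irradiance, and these 38 are described here. They were chosen by CPM, the count of a cluster divided by the sum of all counts of its library and multiplied by 1000000. A cluster was taken when its mean reached 5 CPM at the highest irradiance, when each step in light raised its mean at least 1.5-fold, and when no library of a group overlapped with a library of the group below it. The levels and step sizes below are therefore what chose the clusters. They are given as a description, with no test.

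All cells had been cultured at 22 °C under 150 µmol photons m−2 s−1 in cycles of 16 h light and 8 h dark. For the experiment, cells in the middle of exponential growth were collected and moved to new medium. The 9 libraries form 3 groups of 3. LL cells stayed at 150, ML cells were moved in 1 step to 600, and HL cells were moved in 1 step to 1500 µmol photons m−2 s−1. The light was thus 4-fold higher in ML and 10-fold higher in HL than in LL, and 2.5-fold higher in HL than in ML. No label states the time from the move to the harvest, and none says that the 3 libraries of a group came from separate cultures, so the spread between them may be partly technical. Library totals lay between 17778225 and 19643714 counts.

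An alga moved into stronger light may absorb more excitation than carbon fixation can use, and no label says whether this held in ML or HL. As general background, green algae respond within hours to days by making their light-harvesting antennae smaller, dissipating excess energy as heat, removing reactive oxygen species, repairing photosystem II and raising the capacity of carbon metabolism, and D. salina also accumulates photoprotective carotenoids. Some of the transcripts behind such responses track the amount of light, while others switch at a certain level. The files list clusters by number without gene names, and 0 of the 76875 identifiers were found in the RefSeq gene table of the species (assembly Dunsal1 v. 2). No cluster below can therefore be assigned to any of these processes. Only 2 are given by identifier, and the others by their rank among the 38 in mean CPM in HL.

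Few clusters climbed at both steps. Of the 14204 clusters with a mean of at least 5 CPM in HL, 1703 were at least 1.5-fold higher in ML than in LL, and 4056 were at least 1.5-fold higher in HL than in ML. Both conditions held for 92 clusters (0.648%). In 54 of these 92 the libraries of neighbouring groups overlapped, in 31 between ML and LL alone, in 10 between HL and ML alone and in 13 at both steps. Without any condition on the size of the steps, 303 of the 14204 clusters (2.13%) had all ML libraries above all LL libraries and all HL libraries above all ML libraries. The mirrored rule, with LL as the highest group, held for 70 of the 14830 clusters with a mean of at least 5 CPM in LL. These 70 were counted with library totals only. The number of rising clusters changed with the scaling, as given below, so the 2 numbers are not compared.

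**Figure D1:**
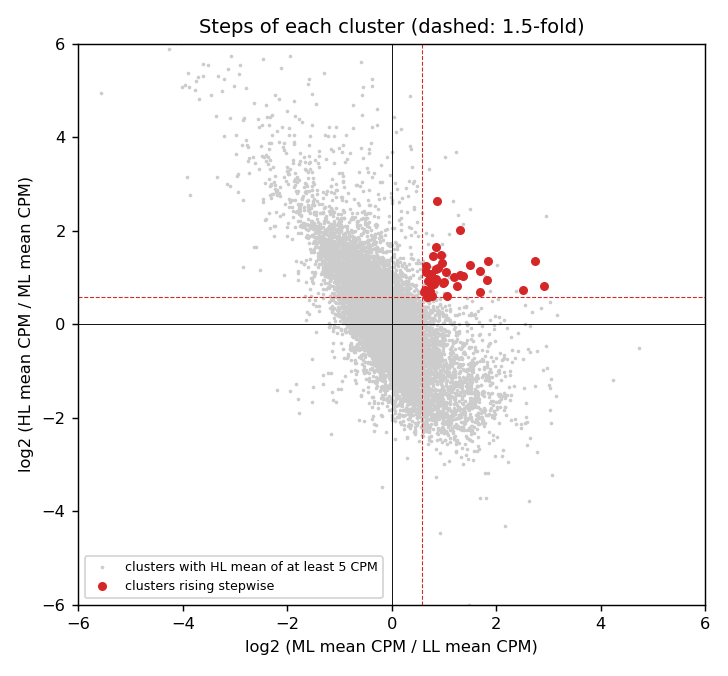
Log2 ratio of the ML to the LL mean (horizontal) and of the HL to the ML mean (vertical) for clusters with a mean of at least 5 CPM in HL (grey) and the 38 clusters rising stepwise (red), with dashed lines at 1.5-fold. The 38 fill the upper right corner beyond both lines, which their choice fixes, and few grey points share it; 75 grey clusters with a mean of 0 or a ratio beyond the axes are not drawn, and both axes use the ML libraries.

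The summed share of all 38 clusters in the sequenced transcripts was small and climbed with light. CPM is a share of the RNA of a whole culture, so more transcript per cell and more cells that express it cannot be told apart, and without gene names the labelled species and its state could not be checked by markers. The 38 clusters took 0.0696%, 0.0661% and 0.0663% of the counts in the LL libraries, 0.175%, 0.186% and 0.183% in the ML libraries, and 0.316%, 0.323% and 0.326% in the HL libraries. The mean share of the LL libraries was 0.0673% ± 0.00196, that of the ML libraries 0.182% ± 0.00584 and that of the HL libraries 0.322% ± 0.00514 (SD, n = 3 each). The sum was 2.70-fold higher in ML than in LL and 1.77-fold higher in HL than in ML. The top 2 clusters held 53.8% of these counts in LL, 66.4% in ML and 60.2% in HL. Without them, the other clusters took 0.0311% ± 0.000801 of the counts in LL, 0.0610% ± 0.00182 of those in ML and 0.128% ± 0.00396 of those in HL (SD, n = 3 each), so that the first step was smaller without them.

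**Figure D2:**
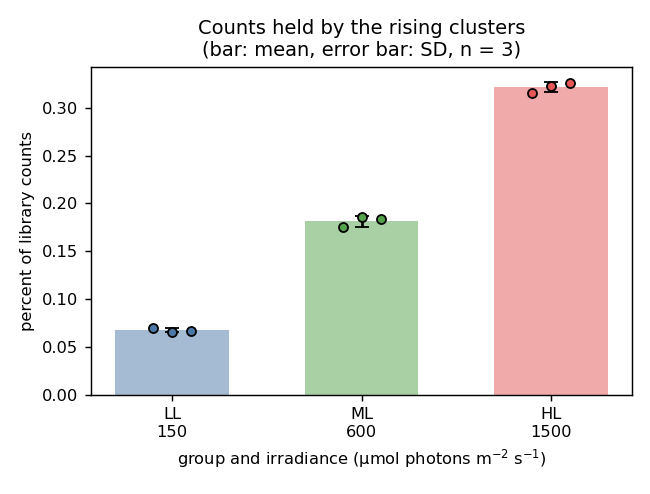
Percent of each library's counts that fell on the 38 rising clusters, by group and irradiance, with points for libraries, bars for means and error bars for the SD (n = 3 per group). The 3 HL libraries sit between 0.316% and 0.326%, the 3 LL libraries between 0.0661% and 0.0696%; the order of the groups follows from how the clusters were chosen.

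The cluster with the highest count in HL made its larger step already at 600 µmol photons m−2 s−1. Cluster-5009.33224 had 135, 123 and 121 CPM in the LL libraries, 689, 735 and 728 CPM in the ML libraries and 1175, 1178 and 1210.4 CPM in the HL libraries. Its libraries lay close together within each group, with a coefficient of variation of 5.90% in LL, 3.45% in ML and 1.65% in HL. Its mean was 5.68-fold higher in ML than in LL and 1.66-fold higher in HL than in ML, so that 0.557 of the rise in CPM from LL to HL had been reached in ML. This was the highest such share among the 38. It rests on library totals, and with the TMM factors described below the share was below 0.5. Its counts were whole numbers in all 9 libraries, while many deposited counts carry decimals, as they do when reads are shared out between similar sequences.

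The second identified cluster climbed strongly at both steps. It was picked as the one with the largest smaller step among the others with a mean of at least 5 CPM in LL. Cluster-5009.36367, ranked 5, had 15.9, 16.3 and 15.2 CPM in the LL libraries, 49.1, 58.9 and 44.4 CPM in the ML libraries and 109, 115 and 113 CPM in the HL libraries. The ML libraries of this cluster varied most, and the lowest of them was still 2.72-fold above the highest LL library. The mean was 3.21-fold higher in ML than in LL and 2.21-fold higher in HL than in ML. Its counts carried decimals, unlike those of Cluster-5009.33224.

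**Figure D3:**
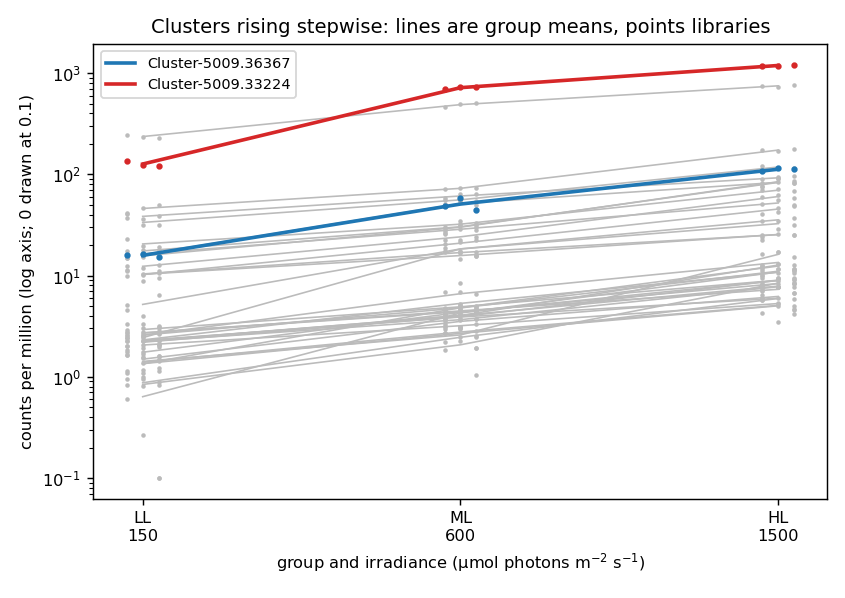
Abundance of the 38 clusters in CPM (log axis) in LL, ML and HL, with a line through the group means of each cluster and a point for each library; Cluster-5009.33224 is red, Cluster-5009.36367 blue and the others grey. Cluster-5009.33224 reached 1188 CPM in HL, while most grey lines stay below 100 CPM.

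The other clusters among the 10 with the most counts in HL differed in where they climbed. The cluster ranked 2 had the highest starting level, with 243, 236 and 229 CPM in LL. It had 462, 497 and 504 CPM in ML and 743, 734 and 766 CPM in HL. With library totals it climbed by similar amounts of CPM at each step, which depends on the scaling described below. The cluster ranked 3 stayed low at the moderate light, with 41.5, 46.4 and 49.98 CPM in LL and 71.1, 73.8 and 73.1 CPM in ML, and stood at 172, 169 and 179 CPM in HL. For the cluster ranked 4, the libraries had 37.1, 31.7 and 31.5 CPM in LL, 58.3, 55.03 and 54.5 CPM in ML and 122, 117 and 116 CPM in HL. In both, most of the rise in CPM thus lay above 600 µmol photons m−2 s−1, with shares reached in ML of 0.209 and 0.266.

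The cluster ranked 6 had the smallest ratio of HL to LL among all 38. It stood at 40.9, 35.9 and 38.4 CPM in LL, 55.6, 63.99 and 63.6 CPM in ML and 90.05, 90.97 and 96.01 CPM in HL, which is 2.40-fold higher in HL than in LL. The cluster ranked 7 had 15.02, 16.7 and 15.3 CPM in LL, 29.9, 31.7 and 28.5 CPM in ML and 77.5, 89.7 and 86.1 CPM in HL. The cluster ranked 9 had 17.6, 18.01 and 16.9 CPM in LL, 27.3, 32.2 and 31.4 CPM in ML and 74.7, 93.03 and 81.8 CPM in HL. Both climbed mainly between 600 and 1500 µmol photons m−2 s−1, by 2.81-fold and 2.74-fold. The cluster ranked 8 did the opposite. It had 14.8, 16.1 and 17.3 CPM in LL and 50.7, 53.95 and 49.97 CPM in ML, a 3.21-fold difference, and 82.9, 83.9 and 82.9 CPM in HL, which is 1.61-fold above ML. Rank 10 stood at 22.9, 19.5 and 19.1 CPM in LL, 28.95, 34.5 and 33.1 CPM in ML and 69.8, 71.1 and 68.1 CPM in HL. Libraries of neighbouring groups never overlapped, as the rule demands, and the narrowest gap among these 10 was that of rank 10, whose lowest ML library was 1.26-fold above its highest LL library.

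The remaining 28 clusters were rarer. Their group means ran from 0.636 to 16.4 CPM in LL (median 2.27), from 2.07 to 28.7 CPM in ML (median 4.36) and from 5.03 to 60.3 CPM in HL (median 9.88). The largest first step belonged to the cluster ranked 15, with 2.03, 2.08 and 3.19 CPM in LL, 22.6, 16.8 and 15.6 CPM in ML and 23.9, 42.2 and 31.5 CPM in HL. Its means differed 7.52-fold between ML and LL, but its HL libraries were widely spread and the lowest was only 1.06-fold above the highest ML library. The largest second step belonged to the cluster ranked 18, which had 1.74, 1.00 and 1.51 CPM in LL and 2.21, 3.07 and 2.49 CPM in ML but 16.3, 16.95 and 15.3 CPM in HL, a 6.25-fold difference from ML. Only 0.0793 of the rise of this cluster had been reached in ML, the lowest share of the 38.

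The largest overall ratio rests on few counts. The cluster ranked 23 had 0.951, 0.957 and 0 CPM in LL, 4.00, 6.85 and 1.95 CPM in ML and 11.6, 11.5 and 9.43 CPM in HL, a 17.1-fold difference between the HL and LL means that rests on 16.9, 18.1 and 0 counts in the LL libraries. Its ML libraries differed from each other more than 3-fold. The cluster ranked 35 also had a library without any count in LL, with 1.09, 1.53 and 0 CPM there, 1.83, 2.25 and 3.29 CPM in ML and 5.74, 5.38 and 6.69 CPM in HL. These were the only 2 clusters with a count of 0 in any library, and 3 of the 38 had under 10 counts in some LL library, while 15 had over 100 in every LL library. The cluster ranked 24 had 4.54, 0.265 and 2.13 CPM in LL, 4.72, 4.61 and 6.59 CPM in ML and 11.03, 10.6 and 10.7 CPM in HL. Its lowest ML library was 1.02-fold above its highest LL library, the narrowest gap at the first step in the set.

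The spread between libraries was widest in LL by its median over the 38, though not in each cluster. The median coefficient of variation was 14.4% in LL (range 2.89% to 92.7%), 8.96% in ML (1.91% to 57.8%) and 6.19% in HL (0.675% to 43.7%). Over the 14204 clusters with at least 5 CPM in HL the medians were 7.47%, 7.26% and 6.52%. No library was consistently the highest or lowest of its group. The library most often highest was HL replicate 2 in HL (18 of 38 clusters), ML replicate 2 in ML (17) and LL replicate 1 in LL (17).

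The steps themselves were moderate for most of the 38. The median ratio was 1.88 between ML and LL (range 1.53 to 7.52) and 2.03 between HL and ML (1.50 to 6.25), and it was 4.22 between HL and LL (2.40 to 17.1). At least 2-fold differences were reached by 15 clusters between ML and LL, by 20 between HL and ML and by 9 at both steps. With library totals, the ratio of the HL to the LL mean was larger than the 10-fold increase in light itself in 4 clusters. These were ranks 15, 18, 23 and 28, with low LL means of 2.44, 1.42, 0.636 and 0.840 CPM. For rank 28 the ratio was only 10.009. In the fit with TMM factors described below, Cluster-5009.33224 and rank 21 also lay above 10-fold, with log2 differences of 3.40 and 3.37. Expressed per doubling of the light, the second step was the steeper one for 31 of 38 clusters, with a median log2 difference of 0.77 per doubling from ML to HL and 0.46 from LL to ML. The minimum of 1.5-fold at both steps alone favours this, because the second step is the smaller increase in light.

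The part of the rise in CPM that had been reached in ML varied between the 38 and with the scaling. A straight line through the irradiances would place ML at 0.333 of the way from LL to HL. With library totals the median over the 38 was 0.348, with the middle of the distribution between 0.261 and 0.381. Above the straight line lay 20 clusters and below it 18. With library totals, a share over 0.5, meaning that most of the rise came by 600 µmol photons m−2 s−1, was seen in 3 clusters (ranks 1, 8 and 15), and a share under 0.25 in 8. This share is made of the same step ratios that chose the clusters, and 2 steps at the minimum of 1.5-fold alone give 0.400, so its nearness to the line is no evidence on the light. It also depends on the scaling of the libraries. With TMM factors over all listed clusters the median share was 0.258 and 6 clusters lay above the line, with RLE factors 0.256 and 6, and with upper-quartile factors 0.204 and 3. The larger fold then lay at the second step for 29, 29 and 33 clusters, against 19 with library totals. With TMM factors the shares of ranks 1, 8 and 15 lay below 0.5. In all 3 scalings each of the 38 means still increased at both steps.

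A fit across the whole table gave the precision of each step. edgeR's quasi-likelihood test with Benjamini-Hochberg adjustment over 34377 clusters used TMM factors, and all 38 clusters passed its expression filter. At an adjusted p below 0.05, 33 of the 38 were called higher in ML than in LL, where 17.1% of all tested clusters were called higher. Between HL and ML, 35 were called higher (28.9% of all tested), and between HL and LL all 38 (22.1% of all tested). At both steps 32 of the 38 were called, beside 0.925% of all tested clusters. These counts follow from the choice of the clusters by the same libraries and say nothing further about them. The median log2 fold change of the 38 was 0.87 between ML and LL, 1.23 between HL and ML and 2.23 between HL and LL, against 0.04, −0.07 and 0.01 over all clusters. With library totals alone, where the medians of all clusters moved to 0.08, −0.28 and −0.15, those of the 38 were 0.91, 1.02 and 2.07.

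The 6 clusters that missed the threshold at a step were rare ones, each ranked 23 or lower. Their adjusted p from edgeR was between 0.0507 and 0.190 in the 5 that missed it between ML and LL, and between 0.0533 and 0.111 in the 3 that missed it between HL and ML. All 6 carried decimals in their counts. The clusters ranked 1 to 22 passed at both steps. For Cluster-5009.33224 the fitted log2 difference was 2.47 (SE 0.04) between ML and LL and 0.93 (SE 0.04) between HL and ML, and for Cluster-5009.36367 it was 1.64 (SE 0.08) and 1.35 (SE 0.08).

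When clusters were chosen anew on fewer libraries, the order held in the unused libraries for most but not all of them. The rule was applied to the libraries of 2 replicate numbers, and the clusters so chosen were looked up in the 3 libraries of the number left out. With number 1 left out, 67 clusters were chosen, and 40 of them (59.7%) had LL below ML below HL in the unused libraries, beside 7.53% of all clusters at the level minimum. With number 2 left out the order held for 41 of 61 (67.2%, beside 9.9%), and with number 3 for 43 of 66 (65.2%, beside 11.2%). Both steps reached 1.5-fold there in 28, 29 and 32 of the clusters (41.8%, 47.5% and 48.5%), beside 0.974%, 1.16% and 1.254% of all clusters at the level minimum. The step from LL to ML held less often. ML exceeded LL in 62.7% to 73.8% of the chosen clusters, beside 33.8% to 41.5% of all clusters at the level minimum, and HL exceeded ML in 87.9% to 97.0%, beside 53.5% to 57.0%. With 1 unused library per group there is no test. Lists chosen on 2 libraries per group are longer than the 38 and hold clusters that the full rule removed. They share 31, 30 and 34 clusters with the 38. No label says that the unused libraries came from separate cultures, so these shares are a description and not independent support.

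Clusters at the edge of the rule were close to it on both sides. The lowest HL mean inside was 5.03 CPM and the highest outside 4.92 CPM, with 60 clusters failing on this condition alone. The smallest ratio between ML and LL was 1.53 inside, and 1.47 was the largest outside, where 55 clusters failed on this alone. Between HL and ML the smallest inside was 1.504 and the largest outside 1.486, with 49 failing on this alone. One of these 49 was far more abundant than most of the 38, with means of 415 CPM in LL, 698 in ML and 1023 in HL.

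**Figure D4:**
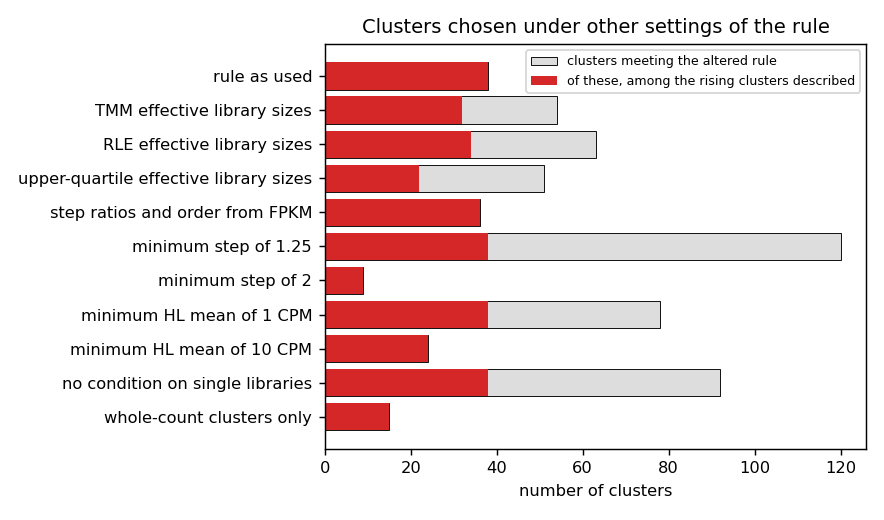
Number of clusters that meet the rule as used and under other settings (full bar), and how many of them are among the 38 (red part). The bars run from 9 clusters at a minimum step of 2 to 120 at the lowest minimum step tried; the red part is 32 to 34 with TMM or RLE library sizes and 22 with upper-quartile library sizes.

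Length was not used by the rule. It was derived for each cluster from its count and its FPKM (fragments per kilobase, scaled to depth, as deposited). The median implied length of the 38 was 1072 bases, against 1307 bases over all 14204 clusters with at least 5 CPM in HL and 1435 bases for the 70 clusters of the mirrored rule. Clusters with a very short implied length made up more of the 38. Below 300 bases were 8 of the 38 (21.1%), against 5.39% of the 14204 and 5 of the 70 clusters of the mirrored rule. Among the other 30 the median was 1315 bases, and 1374 bases among clusters of at least 300 bases at this level. At 2500 bases or more were 6 of the 38 (15.8%), against 17.7% of the 14204. The shortest implied length was 17.1 bases, so the implied lengths cannot all be full transcript lengths. A value below 300 bases therefore need not mean a short transcript. Short clusters are below those under 300 implied bases.

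**Figure D5:**
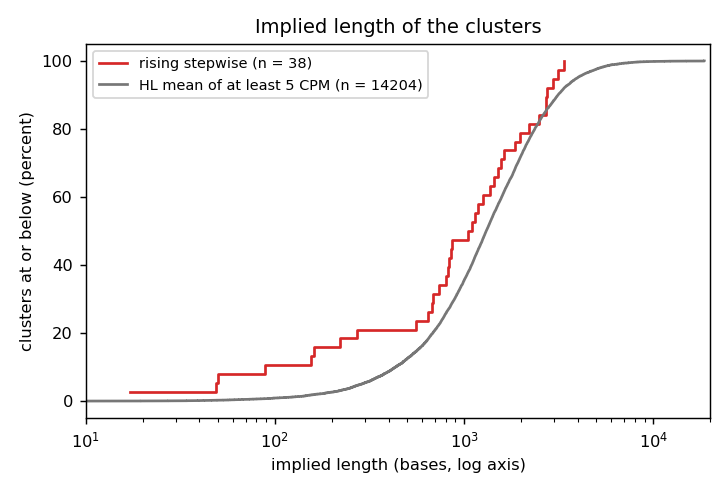
Cumulative percent of clusters by implied length (bases, log axis) for the 38 rising clusters (red) and the 14204 clusters with a mean of at least 5 CPM in HL (grey). The red curve lies above the grey one at the short end, with 21.1% against 5.39% below 300 bases, and meets it near 2500 bases.

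The short clusters change the picture of abundance per length. By FPKM in HL, 5 of the 8 highest of the 38 were clusters below 300 implied bases. The highest FPKM was that of the cluster ranked 2 by count, with 284 ± 9.04 FPKM in LL, 586 ± 25.6 FPKM in ML and 893 ± 22.5 FPKM in HL (SD, n = 3 each). Cluster-5009.33224 was at rank 3 by FPKM, with 51.1 ± 3.03 FPKM in LL, 290.2 ± 9.63 FPKM in ML and 479.6 ± 8.53 FPKM in HL (SD, n = 3 each). Between them stood the cluster of 17.1 implied bases, whose 668 ± 37.1 FPKM in HL (SD, n = 3) came from only 12.4 CPM. The implied length was not quite the same in each group, and this weighed most on the short clusters. That of Cluster-5009.33224 was 2469.8 bases in LL, 2472.1 in ML and 2476.9 in HL. That of the cluster ranked 21 by count was 15.8 bases in LL, 17.7 in ML and 18.6 in HL, and its HL mean was 9.26-fold above its LL mean by CPM but 7.85-fold by FPKM. For rank 18 the same ratio was 11.4 by CPM and 10.3 by FPKM. Over the 8 short clusters the ratio of HL to LL by FPKM differed from that by CPM by 2.66% to 15.2%, and over the other 30 by at most 1.24%.

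Most of the 38 had counts with decimals. Whole counts in all 9 libraries (within 0.001) were found for 15 of the 38, or 39.5%, with an exact 95% binomial interval of 24.04% to 56.6% that treats the clusters as independent. The share was 43.2% among the 14204 and 31.4% among the 70. Of the 8 short clusters 7 had whole counts, and the share among all short clusters of the 14204 was not counted. The whole-count clusters had a median ratio of 1.75 between ML and LL and 2.07 between HL and ML, and the other 23 had 1.99 and 2.03. In the identifiers, all 38 shared the leading number 5009, as did 14203 of the 14204. Starting levels were low: the median LL mean was 2.65 CPM, against 19.5 CPM over the 14204 clusters, while the HL median was 13.1 CPM against 17.9 CPM. The rule requires a rise and so favours low LL values.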

How the data were processed

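Per the labels' protocols, NEBNext Ultra libraries were prepared from 1.5 µg of Trizol-extracted RNA. For each library the authors deposited estimated counts and FPKM values per cluster, per the file headers. The counts carry decimals (27.9% to 31.0% of the clusters of a library) and are not scaled. The FPKM values were scaled to length and depth by the authors, per the file headers. DESeq 1.10.1 is named in the submitters' processing notes. No assembler, aligner or counter is named there.

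The clusters, and the tests described, were chosen with earlier results of these data known. CPM used library sums of counts. Estimated counts were rounded to whole numbers for edgeR 4.0.16 in R 4.3.3 (default expression filter, TMM factors, group as the only term over all 9 libraries, robust fit, 6 residual degrees of freedom) and for DESeq2 1.42.0. The edgeR fit was tested on simulated data with known folds. That simulation changed few clusters, in HL alone, and drew the libraries independently. It therefore cannot show how the fit behaves on these data. Implied length was the median over libraries of count divided by FPKM and by library total, where FPKM was at least 0.5. Within groups, chi-square per degree of freedom between libraries was 6.23 to 9.82, so every pair differed by more than counting noise. Intervals of shares cover counting over clusters only. The 2 clusters given by identifier were the one with the highest HL mean and, among others with at least 5 CPM in LL, the one with the largest smaller step. The others described were the 10 highest in HL, and extremes chosen after their values were seen. Alternatives were other library scalings, filters, tools, thresholds of the rule, whole-count clusters and leaving out libraries.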

Additional observations from a re-analysis of the deposited data

How the results depend on the processing

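The number of clusters depended on the rule more than on single libraries. It was 120 at the lowest minimum step tried, 9 at a step of 2, 78 at a minimum of 1 CPM in HL, 24 at 10 CPM, 92 with no condition on single libraries, 15 for whole-count clusters and 63 with RLE library sizes. TMM gave 54, upper-quartile sizes 51 and FPKM ratios 36. Of the 38, 22 were chosen under all 3 other scalings. Leaving out 1 library at a time gave 39 to 55 clusters, with 34 to 37 of the 38 among them, and 29 of the 38 were chosen whichever library was left out.

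For the 9 clusters at a minimum step of 2 the share of counts was 0.00364% of LL, 0.0102% of ML and 0.0228% of HL counts, and it was 0.0283%, 0.101% and 0.177% for whole-count clusters. Without the top 2 clusters, an alternative chosen after seeing the data, it was 0.0311%, 0.0610% and 0.128%. Leaving out a library gave 0.0662% to 0.0679% for LL, 0.179% to 0.185% for ML and 0.320% to 0.324% for HL. The median share of the rise reached in ML was 0.258 with TMM factors and 0.321 to 0.351 without 1 library. The median implied length was 559 bases for whole-count clusters. The order in unused libraries held for 59.7% to 67.2% of the clusters chosen anew, mean 64.0%.

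Calls by edgeR varied most between ML and LL. Without 1 library, 27 to 34 clusters were called there, 33 to 37 between HL and ML, 38 between HL and LL, and 27 to 33 at both steps. Leaving out ML replicate 2 alone lowered the calls from 33 to 27 between ML and LL and from 32 to 27 at both steps. Other scalings, no filter and DESeq2 gave 31 to 35, 34 to 36, 36 to 38 and 31 to 34. Replicate numbers are shared by the groups, and no sign was seen that they pair the libraries. The deviations of same-numbered libraries correlated at −0.107 to 0.0117, and 0 of 9 libraries correlated best with its own number. A fit with the replicate number as a block called 33, 35, 38 and 33 of the 38 higher. Calls in either direction over all 34377 tested clusters were 11180 with the block against 12587 without it (ML against LL). Between HL and ML they were 19082 against 20219, and between HL and LL 13792 against 15317. As to depth, 3 of 38 clusters had under 10 counts in an LL library.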
